A study of Mus musculus with 28 samples.

Results

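Labelled cells of the Slc1a3 line were compared with labelled cells of the Aspm line in mouse back skin by RNA sequencing. The members were chosen by their labels alone: the back-skin libraries of sorted, labelled cells from these lines, 3 for each line, 6 of the 28 libraries of the series. Epidermal cells of the same lines that were not selected for the label, called totals here, were compared in the same way in 3 and 3 further libraries. They served as the background of the lines. The interfollicular epidermis (IFE) is the skin surface between the hair follicles, and its basal layer holds the dividing keratinocytes from which the upper layers are renewed. Slc1a3 encodes a glutamate transporter and Aspm a protein of the mitotic spindle pole, and mouse lines with a Cre recombinase under these names are used in skin to mark basal cells that may divide at different rates or sit in different places. A cell marked by an inducible Cre recombinase passes the mark to its daughters, so a sample taken weeks later holds marked cells and their progeny rather than cells that express the driver at that moment.

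The Slc1a3+ cells came from mice carrying Slc1a3CreER and RosatdTomato, the Aspm+ cells from mice carrying AspmCreER and RosatdTomato, and each line's total from mice of the same genotype. CreER is a recombinase that acts when tamoxifen is given, and RosatdTomato then expresses a red fluorescent protein. All mice received tamoxifen between postnatal days 30 and 34 and were taken 2 weeks later at postnatal day 49, in telogen, the resting phase of the hair cycle. The genotypes also carry the label WT, with no other allele named. Replicates are numbered 1, 2 and 4 in each group. Whether the libraries of a group came from separate animals is not stated. The p-values therefore rest on the spread among the samples alone, and that spread may be technical. The sequenced RNA was poly(A)-selected and the kit does not keep the strand, so reads of overlapping genes on opposite strands cannot be told apart. Of the genes named below as changed, Tbx3, Ndufa4l2, Serpinb10 and Tmem176b overlap a named gene, and others overlap predicted or unnamed ones, such as Gm20631 at Hmcn1.

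The Slc1a3+ libraries held 16985893, 20215281 and 11669653 counts, and the Aspm+ libraries 20171494, 35604425 and 20005792. The totals of the 2 lines held between 7738262 and 28334458 counts. The Slc1a3 total replicate 4 stood apart, with 14436 genes with a count, against 19265 to 21347 in the other 5 totals, and with 0.208% of counts from mitochondrial genes, against 1.39% to 1.98%. Its log2 levels correlated with those of its group at r = 0.855 at the lowest, whereas the lowest r within the Slc1a3+ and Aspm+ groups was 0.967 and 0.947. Mitochondrial genes took 1.22%, 1.38% and 1.60% of counts in Slc1a3+ libraries and 0.992%, 1.81% and 2.32% in Aspm+ libraries.

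The genes that name the lines did not separate them by the test. Slc1a3 itself averaged 25.6 ± 3.19 CPM (counts-per-million, with library sizes scaled by TMM) in Slc1a3+ cells and 19.4 ± 2.06 CPM in Aspm+ cells (SD, n = 3 each), a log2 change of 0.40 ± 0.22 (SE) with an adjusted p of 0.604 by edgeR's quasi-likelihood test. The 3 Slc1a3+ libraries lay above the 3 Aspm+ libraries. Aspm averaged 22.5 ± 5.44 CPM in Slc1a3+ cells and 16.6 ± 4.79 CPM in Aspm+ cells (SD, n = 3 each), with overlapping libraries and an adjusted p of 0.736. The tdTomato reporter was not analysed here, so the labels of the sort were not checked by it. Krt14, a keratin of basal cells, averaged 11207 ± 1026 CPM in Slc1a3+ cells and 13355 ± 2859.5 CPM in Aspm+ cells (adjusted p = 0.850 by edgeR). Of 16 genes of basal keratinocytes, 4 had a positive and 12 a negative log2 change and 0 passed the test. Their summed level was 60915 to 67188 CPM in Slc1a3+ libraries and 72586 to 77900 CPM in Aspm+ libraries, so the ranges did not overlap.

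Between the labelled cells 28 of 17493 genes passed at an adjusted p under 0.05, which is 0.16% of genes tested. Of these, 8 were higher in Slc1a3+ cells (0.0457% of genes tested) and 20 were lower (0.114%). In Slc1a3+ cells the insulin-like growth factor binding protein Igfbp3, the T-box factor Tbx3, the gap junction gene Gjb2, the orphan nuclear receptor Nr4a1 and the RNA-degrading regulator of inflammation Zc3h12a were higher. The matrix genes Hmcn1 and Ltbp1, the kinesin Kif26b, the cell shape gene Shroom3, the protease Pappa, the BMP and Wnt antagonist Sostdc1 and the defensin Defb1 were lower. The 28 changes ranged in size from 0.84 to 6.05 on the log2 scale, and the largest, of Cidea, rests on a group at 0. In all 28 the 3 Slc1a3+ libraries did not overlap the 3 Aspm+ libraries, which held for 13.8% of all genes tested. In bulk samples, fewer cells of a type and less RNA per cell cannot be told apart.

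The count differed between fits. With only the 6 compared libraries in the fit 0 of 14167 genes tested passed (1145 at an unadjusted p under 0.05), and without the Slc1a3 total replicate 4, a library of neither compared group, 115 of 17416 passed, the 28 among them. Scaling by library totals gave 24 genes, 13 higher and 11 lower, with 19 of the 28 among them, and moved the median of all genes by 0.09 on the log2 scale.

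Between the totals of the lines 2 genes passed (0.0114% of genes tested), Nr4a1 and Defb1, both with an adjusted p of 0.0403 by edgeR, whereas 2595 had an unadjusted p under 0.05. Nr4a1 was higher and Defb1 lower in the Slc1a3 total, each in the direction it had between the labelled cells. The call of either gene ended when the Slc1a3 total replicate 2 or 4 or the Aspm total replicate 1 or 4 was left out, when 0 genes passed. Without the Slc1a3 total replicate 1, 32 passed, and without the Aspm total replicate 2, 4 passed, among them Nr4a1 but not Defb1. Of the 28 genes that passed between labelled cells, 24 had the same sign between the totals and 17 had an unadjusted p under 0.05 there in that direction. How many of all genes shared a sign was not computed. Same-numbered labelled and total libraries of 1 line deviated together, so the 2 comparisons are not independent. The plot of both changes shows that the genes fell along a range, with Igfbp3, Ndufa4l2, Gjb2, Hmcn1 and Cacna2d2 near 0 between the totals and Nr4a1, Hspb8, Tmem176b and Tent5b at the same size in both.

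**Figure D1:**
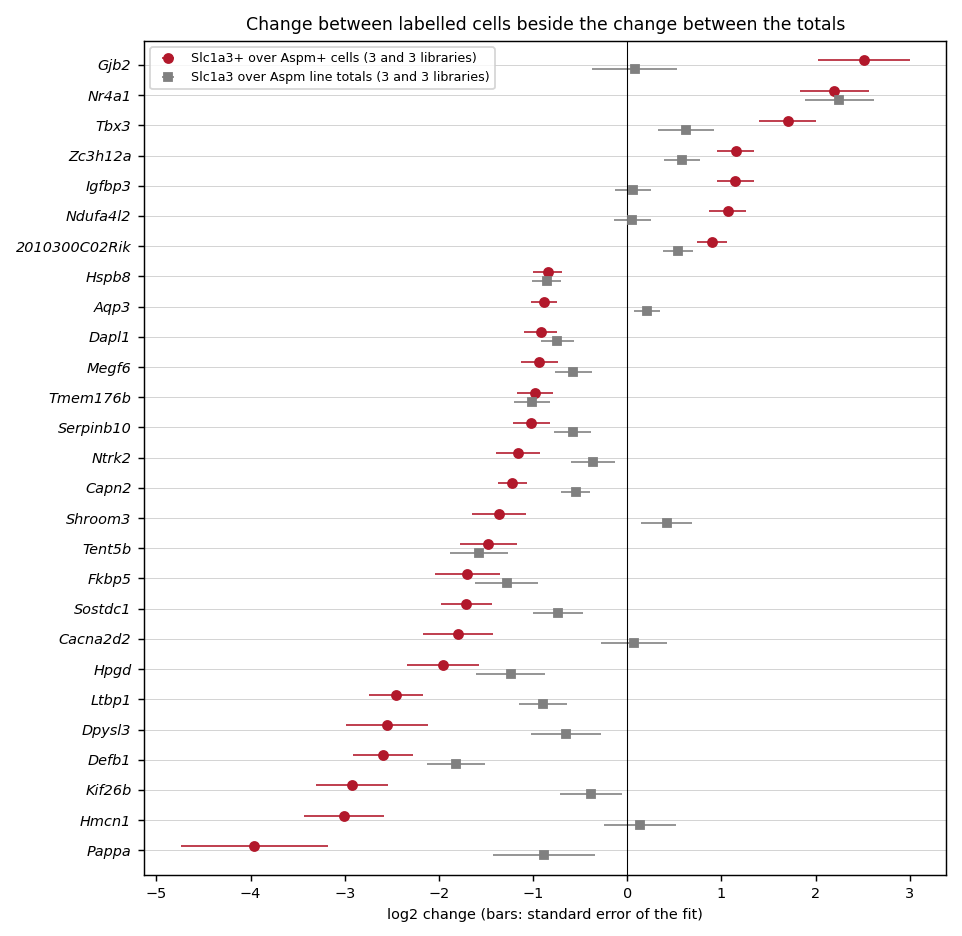
Log2 change of the genes that passed between labelled cells, Slc1a3+ over Aspm+ (red circles), beside the log2 change between the Slc1a3 and Aspm line totals (grey squares); bars are standard errors of the fit. Cidea, at 0 counts in Aspm+ cells, is not drawn. Hmcn1 stands at −3.01 between labelled cells and 0.14 between totals, whereas Nr4a1 stands at 2.20 and 2.25.

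The test of whether the labelled difference exceeded the difference between the totals passed for 0 genes (0.0% of genes tested) in edgeR, with 565 at an unadjusted p under 0.05, 7 passing in DESeq2 and 1 in limma-voom. The lowest adjusted p, 0.0969, was shared by Hmcn1 and Aqp3. Labelled and total libraries of 1 line that share a number deviated together, and with a term for each such pair 6 genes passed: Igfbp3 higher, Hmcn1, Shroom3, Aqp3 and Kif26a lower, and the predicted gene Gm8210. With the Slc1a3 total replicate 4 left out as well, 16 passed, among them Kif26b, Cacna2d2 and Capn2. Without the Slc1a3+ replicate 1 the fit without pairs passed 1 gene, Sostdc1. No gene below is therefore called particular to the labelled cells from the main test.

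Igfbp3, at chr11:7206086-7213923 on the minus strand (GRCm38), encodes a secreted protein that binds insulin-like growth factors in the tissue. It was measured at 1509.8, 1871 and 1508 CPM in Slc1a3+ libraries and at 758, 669 and 780.2 CPM in Aspm+ libraries. The lowest Slc1a3+ library lay well above the highest Aspm+ library. Igfbp3 was 2.22-fold higher in Slc1a3+ cells (log2 change 1.15 ± 0.20 SE, adjusted p = 0.00864 by edgeR). Between the totals it was level, with 1323, 1241 and 925 CPM in the Slc1a3 line and 1492, 863 and 983 CPM in the Aspm line, a log2 change of 0.06 ± 0.19 (adjusted p = 0.918 by edgeR). The difference of the 2 changes was 1.08 ± 0.27, with an unadjusted p of 0.000626. The call was lost without the Slc1a3+ replicate 2, the Aspm+ replicate 2 or the Aspm+ replicate 4, with log2 changes between 1.04 and 1.25 under every setting tried.

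Insulin-like growth factors act on a receptor at the cell surface, and binding proteins hold them. Proteases such as that encoded by Pappa cut some of these binding proteins. Whether the Igfbp3 protein is cut here was not tested. Of 18 measured genes of this pathway 12 had a positive and 6 a negative log2 change, with a median of 0.16, and Igfbp3 and Pappa passed, in opposite directions. Pappa had 0, 0.233 and 0.0811 CPM in Slc1a3+ libraries and 2.19, 1.65 and 1.78 CPM in Aspm+ libraries. These levels rest on 6 summed counts in Slc1a3+ cells and 136 in Aspm+ cells, and the ratio was 15.6-fold lower in Slc1a3+ cells, with an exact 95% interval of 7.0 to 43.3 that covers counting error only. Its adjusted p was 0.0305 by edgeR, and the call was lost with any of the 6 libraries left out. Its log2 change was −3.96 ± 0.78, and −5.56 without the Slc1a3+ replicate 2. Between the totals the log2 change of Pappa was −0.88. Igfbp2 and Igfals, a second binding protein gene and the acid-labile subunit that joins Igfbp3 complexes in blood, did not pass, with log2 changes of 1.67 (adjusted p = 0.331) and 1.64 (adjusted p = 0.185) by edgeR.

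Tbx3, at chr5:119670669-119684724 on the plus strand, encodes a T-box transcription factor. It had 19.5, 16.9 and 20.1 CPM in Slc1a3+ libraries and 4.99, 8.49 and 3.72 CPM in Aspm+ libraries, with no overlap. Tbx3 was 3.26-fold higher in Slc1a3+ cells (log2 change 1.70 ± 0.30 SE, adjusted p = 0.0135 by edgeR). The totals overlapped, at 18.8, 10.1 and 20.3 CPM in the Slc1a3 line and 14.8, 8.73 and 8.24 CPM in the Aspm line, a log2 change of 0.62 ± 0.30. It was 1 of 6 T-box genes measured, and the other 5 did not pass. The antisense gene Tbx3os1 overlaps it, and the call was lost without the Slc1a3+ replicate 4, the Aspm+ replicate 1 or the Aspm+ replicate 4.

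Gjb2 encodes connexin 26, a gap junction subunit, and Ndufa4l2 a mitochondrial protein whose gene responds to low oxygen. Gjb2 was low throughout back skin, at 3.65, 2.89 and 1.70 CPM in Slc1a3+ libraries and 0.153, 0.626 and 0.611 CPM in Aspm+ libraries. It was 5.71-fold higher in Slc1a3+ cells (adjusted p = 0.026 by edgeR), against a log2 change of 0.08 ± 0.45 between the totals. Ndufa4l2, which overlaps Shmt2, had 364, 193 and 349 CPM in Slc1a3+ libraries and 179, 142 and 110.4 CPM in Aspm+ libraries. The gap between the groups was narrow, since the lowest Slc1a3+ library was 193 CPM and the highest Aspm+ library 179 CPM. Ndufa4l2 was 2.10-fold higher in Slc1a3+ cells (adjusted p = 0.0169 by edgeR) and stood at a log2 change of 0.05 ± 0.19 between the totals. Gjb2 lost its call without any 1 library except the Slc1a3+ replicate 4, and Ndufa4l2 without the Slc1a3+ replicate 1 or 4 or the Aspm+ replicate 2 or 4. Of 30 genes of the hypoxia response 16 had a positive and 14 a negative change, median 0.01, and Ndufa4l2 alone passed. Vegfa, the vascular growth factor, and Hk2, a hexokinase, had log2 changes of 1.10 (adjusted p = 0.131) and 1.05 (adjusted p = 0.0941), whereas Bnip3l, a mitophagy receptor, had −0.56 (adjusted p = 0.0570), all by edgeR.

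**Figure D2:**
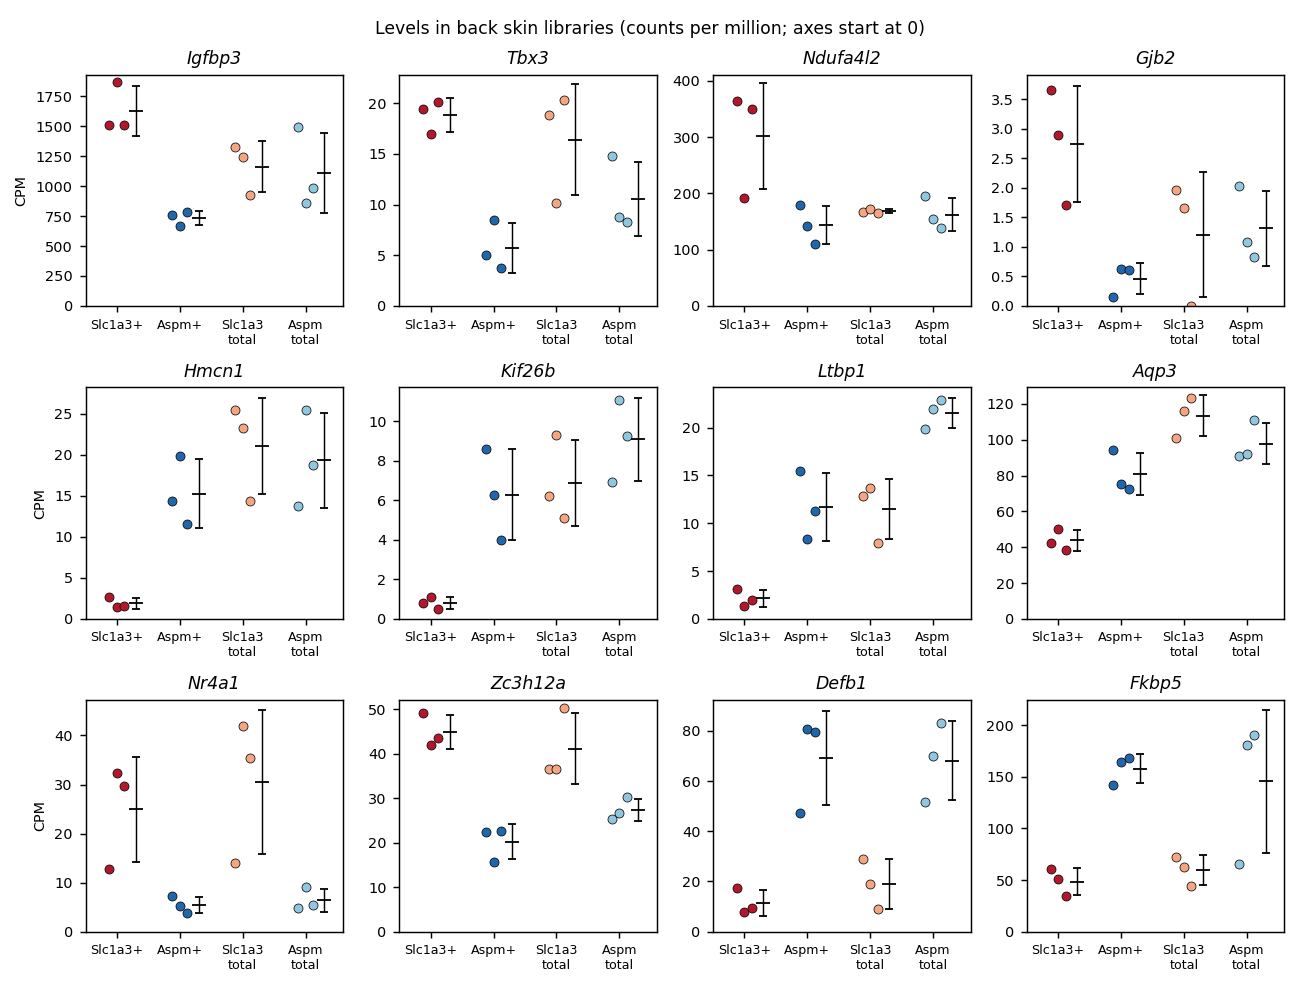
CPM of 12 genes in each library of the Slc1a3+, Aspm+, Slc1a3 total and Aspm total groups of back skin (points), with the group mean and SD (black, n = 3 each). In Hmcn1 the 3 Slc1a3+ libraries sit between 1.45 and 2.68 CPM, below every library of the other 3 groups.

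Among the genes that were lower, Hmcn1 encodes hemicentin 1, a large matrix protein known from worms and fish for joining epithelia to neighbouring tissue. It lies at chr1:150562524-150993435 on the minus strand. It had 2.68, 1.45 and 1.54 CPM in Slc1a3+ libraries and 14.4, 19.8 and 11.6 CPM in Aspm+ libraries, with no overlap. Hmcn1 was 8.05-fold lower in Slc1a3+ cells (log2 change −3.01 ± 0.43 SE, adjusted p = 0.00105 by edgeR), and the call held with each of the 6 libraries left out in turn. Both totals stood at the level of Aspm+ cells or above, with 25.5, 23.3 and 14.4 CPM in the Slc1a3 line and 13.8, 25.4 and 18.8 CPM in the Aspm line. The difference of the 2 changes was −3.14 ± 0.56. Ltbp1, which encodes a protein that stores latent TGF-beta in the matrix, had 3.14, 1.31 and 1.95 CPM in Slc1a3+ libraries and 15.5, 8.37 and 11.3 CPM in Aspm+ libraries. It was 5.50-fold lower in Slc1a3+ cells (adjusted p = 0.000174 by edgeR), the lowest adjusted p of the comparison, and its change between the totals was −0.89 ± 0.26. Of 43 genes of basement membrane and matrix, 23 had a positive and 20 a negative change, and these 2 passed, both lower.

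Promoters are shown for the gene with the lowest p for the difference of the 2 changes and for the gene that rose in labelled cells and totals alike. Each runs from 250 bases before to 50 after the start given by RefSeq (GRCm38.p6), 5′ to 3′ on the gene's strand, and capitals mark CCAAT in Hmcn1 (chr1:150993386-150993685, minus strand) and TGACG in Nr4a1 (chr15:101266596-101266895, plus strand), on either strand.
Hmcn1: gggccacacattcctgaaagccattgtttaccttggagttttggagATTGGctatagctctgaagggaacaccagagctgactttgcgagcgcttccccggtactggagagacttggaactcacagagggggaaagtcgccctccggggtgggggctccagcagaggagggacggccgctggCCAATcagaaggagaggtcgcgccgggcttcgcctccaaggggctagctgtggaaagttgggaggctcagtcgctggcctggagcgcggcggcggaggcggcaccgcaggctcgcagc
Nr4a1: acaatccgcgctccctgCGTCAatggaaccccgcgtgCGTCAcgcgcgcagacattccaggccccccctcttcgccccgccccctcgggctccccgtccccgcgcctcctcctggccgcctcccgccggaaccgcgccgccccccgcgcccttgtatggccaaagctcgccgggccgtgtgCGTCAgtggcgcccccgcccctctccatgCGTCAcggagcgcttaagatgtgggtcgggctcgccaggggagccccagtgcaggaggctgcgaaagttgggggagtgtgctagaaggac
The Hmcn1 promoter holds CCAAT 2 times and the Nr4a1 promoter holds TGACG, the core of the cyclic AMP response element, 4 times, all on the minus strand. CCAAT was in 37.4% and TGACG in 20.8% of 32851 mouse promoters of this length. Of the 28 genes that passed, 20 had at least 1 promoter in the table, 24 promoters in all, and 9 of the 24 held CCAAT, 6 held TGACG, 14 held GGGCGG, 3 held TATAAA and 1 held TGACGTCA, which contains TGACG. The last 3 motifs were in 35.7%, 13.6% and 1.79% of all promoters. Both strands were searched, and a match describes letters only.

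From a list of genes that organise the cytoskeleton, Kif26b, Shroom3, Dpysl3 and Cacna2d2 were lower in Slc1a3+ cells. Kif26b, a kinesin-like protein without motor activity that acts in cell polarity, had 0.799, 1.12 and 0.487 CPM in Slc1a3+ libraries and 8.60, 6.26 and 3.97 CPM in Aspm+ libraries. The groups did not overlap, and Kif26b was 7.56-fold lower in Slc1a3+ cells (log2 change −2.92 ± 0.38 SE, adjusted p = 0.000374 by edgeR), a call kept in all 6 leave-outs. Its totals, at 6.21, 9.32 and 5.11 CPM in the Slc1a3 line and 6.92, 11.1 and 9.25 CPM in the Aspm line, differed by a log2 change of −0.39 ± 0.33. Shroom3, an actin-binding protein that drives apical constriction, had 2.34, 3.78 and 2.59 CPM in Slc1a3+ libraries and 8.60, 6.89 and 7.08 CPM in Aspm+ libraries. Shroom3 was 2.57-fold lower (adjusted p = 0.0478 by edgeR), while its change between the totals was 0.42 ± 0.27. Dpysl3, a cytoskeletal regulator of growth cones, was 5.85-fold lower, at a mean of 1.15 ± 0.406 CPM in Slc1a3+ cells and 6.84 ± 1.87 CPM in Aspm+ cells (SD, n = 3 each; adjusted p = 0.00864 by edgeR). Cacna2d2, a subunit of voltage-gated calcium channels placed in the same list, was 3.47-fold lower, at a mean of 3.35 ± 1.12 CPM in Slc1a3+ cells and 11.6 ± 0.527 CPM in Aspm+ cells (SD, n = 3 each; adjusted p = 0.0466 by edgeR). Of 12 genes in this list 4 passed, all lower, with a median log2 change of −0.81, against 0.00 over all genes and 0.24 for the list between the totals. The list was written with these changes known, so its count is no independent evidence. Kif26a, the close relative of Kif26b, had a log2 change of −2.12 ± 0.57 (adjusted p = 0.166 by edgeR). Shroom3 and Cacna2d2 lost their calls with any of the 6 libraries left out and when scaled by library totals, and Dpysl3 without the Slc1a3+ replicate 2 or 4. Between the totals the log2 change was −0.65 for Dpysl3 and 0.07 for Cacna2d2.

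Among regulators of BMP and TGF-beta signals, Ltbp1 and Sostdc1 were lower in Slc1a3+ cells. These growth factors act through paired receptors and SMAD proteins, and antagonists outside the cell limit them, among them Sostdc1, which also limits Wnt signals. Sostdc1 had 78.8, 27.8 and 30.3 CPM in Slc1a3+ libraries and 175, 129 and 144 CPM in Aspm+ libraries. The Slc1a3+ replicate 1 was the highest of its group but still below every Aspm+ library. Sostdc1 was 3.27-fold lower in Slc1a3+ cells (log2 change −1.71 ± 0.27 SE, adjusted p = 0.00466 by edgeR), and leaving out any of the 6 libraries did not end the call. Without the Slc1a3+ replicate 1 the log2 change was −2.36. Between the totals it stood at −0.74 ± 0.26. Of 34 genes of this pathway 14 had a positive and 20 a negative change, median −0.14, and 2 passed, Ltbp1 and Sostdc1. Fst, the activin antagonist follistatin, and Scube2, a secreted protein of hedgehog and BMP signalling, had log2 changes of −1.72 (adjusted p = 0.0640) and −1.26 (adjusted p = 0.0941) by edgeR. Of 43 genes of the Wnt pathway 27 had a positive and 16 a negative change, median 0.16, and the 2 that passed, Kif26b and Sostdc1, were lower. Prickle1, a planar polarity gene, had a log2 change of 0.80 (adjusted p = 0.0856 by edgeR). Of 20 genes that mark bulge and germ of the hair follicle, 9 had a positive and 11 a negative change and Sostdc1 alone passed. Their summed level was 1834 to 2127 CPM in Slc1a3+ libraries and 1513 to 2257 CPM in Aspm+ libraries.

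Further genes of the cell surface and a protease gene were lower. Ntrk2, the receptor for brain-derived neurotrophic factor, had 53.1, 92.7 and 54.2 CPM in Slc1a3+ libraries and 150.2, 109.8 and 189 CPM in Aspm+ libraries, a 2.24-fold difference (adjusted p = 0.0388 by edgeR). Capn2, a calcium-dependent protease, had 10.9, 9.47 and 12.6 CPM in Slc1a3+ libraries and 23.5, 26.6 and 26.4 CPM in Aspm+ libraries. Each group was narrow, and Capn2 was 2.33-fold lower in Slc1a3+ cells (adjusted p = 0.000374 by edgeR), with or without any 1 of the 6 libraries. Aqp3, the aquaporin that carries water and glycerol in basal keratinocytes, had 42.4, 50.2 and 38.6 CPM in Slc1a3+ libraries and 94.4, 75.3 and 72.7 CPM in Aspm+ libraries. It was 1.84-fold lower (adjusted p = 0.00466 by edgeR). The means of its totals lay above the means of both labelled groups, at 113 ± 11.5 CPM in the Slc1a3 line and 97.8 ± 11.3 CPM in the Aspm line (SD, n = 3 each). The difference of the 2 changes was −1.09 ± 0.20. Aqp3 was named after its values were seen, as were Tmem176b, Megf6, Dapl1, Hspb8 and 2010300C02Rik below. The call of Aqp3 was lost without the Slc1a3+ replicate 4, and that of Ntrk2 without the Slc1a3+ replicate 1 or 4 or the Aspm+ replicate 1 or 4 and when scaled by library totals. Between the totals the log2 change was −0.36 for Ntrk2 and −0.54 for Capn2.

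Another set of genes differed between the totals about as much as between the labelled cells. Nr4a1, a nuclear receptor induced within minutes of many stimuli, had 12.7, 32.4 and 29.7 CPM in Slc1a3+ libraries and 7.18, 5.30 and 3.82 CPM in Aspm+ libraries. In the totals it had 14.1, 42.0 and 35.5 CPM in the Slc1a3 line and 4.77, 9.11 and 5.45 CPM in the Aspm line. Replicate 1 was the lowest of the Slc1a3 line in labelled cells and totals alike, and the lines did not overlap in either. Nr4a1 was 4.59-fold higher in Slc1a3+ cells (log2 change 2.20 ± 0.37 SE, adjusted p = 0.00779 by edgeR), against 2.25 ± 0.37 between the totals. Its call between labelled cells was lost without the Slc1a3+ replicate 2 or the Aspm+ replicate 4. Of 34 immediate early genes 20 had a positive and 14 a negative change, median 0.26 (0.33 between the totals), and Nr4a1 alone passed. The early transcription factors Egr1 and Fos had log2 changes of 1.5 (adjusted p = 0.137) and 1.35 (adjusted p = 0.318) by edgeR. Of 17 genes of heat shock and dissociation stress, 4 had a positive and 13 a negative change and 0 passed, with a summed level of 4444 to 5109 CPM in Slc1a3+ libraries and 5297 to 5809 CPM in Aspm+ libraries.

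Zc3h12a, which encodes Regnase-1, an RNase that degrades messages of inflammatory genes, had 49.3, 42.1 and 43.5 CPM in Slc1a3+ libraries and 22.4, 15.8 and 22.6 CPM in Aspm+ libraries. The groups were far apart, and Zc3h12a was 2.22-fold higher in Slc1a3+ cells (log2 change 1.15 ± 0.20 SE, adjusted p = 0.00864 by edgeR), with 0.58 ± 0.19 between the totals. The call was lost without the Aspm+ replicate 2. Zc3h12a is itself a target of NF-kB, the transcription factor family of inflammatory signals. Of 26 genes of the NF-kB response 24 had a positive change, with a median of 0.47, against 49.6% of all genes and a median of 0.00. Only 1 of the 26 passed, Zc3h12a itself, and 7 had an unadjusted p under 0.05 by edgeR, all higher. The list was written with earlier results of these data known, so its counts are no independent evidence. Between the totals 19 of the 26 were positive, median 0.21. Relb, an NF-kB subunit, and Icam1, an adhesion molecule, had log2 changes of 0.71 (adjusted p = 0.165) and 0.90 (adjusted p = 0.215) by edgeR. The summed level of the list was 1472 to 1494 CPM in Slc1a3+ libraries and 1113 to 1462 CPM in Aspm+ libraries.

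Defb1, a beta-defensin that kills microbes, had 17.2, 7.79 and 9.41 CPM in Slc1a3+ libraries and 47.4, 80.7 and 79.5 CPM in Aspm+ libraries. It was 6.03-fold lower in Slc1a3+ cells (log2 change −2.59 ± 0.32 SE, adjusted p = 0.000255 by edgeR), a call kept in all 6 leave-outs. The totals, at 28.7, 18.9 and 8.94 CPM in the Slc1a3 line and 51.7, 69.9 and 82.9 CPM in the Aspm line, did not overlap either, and the change between them was −1.82 ± 0.31. It was 1 of 17 measured genes of secreted defence, 8 positive and 8 negative, and the others did not pass.

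Of the genes induced by glucocorticoids, Fkbp5 and Hpgd were lower in Slc1a3+ cells. Fkbp5, a chaperone of the glucocorticoid receptor and a standard target of it, had 60.4, 50.9 and 34.5 CPM in Slc1a3+ libraries and 142, 164 and 168 CPM in Aspm+ libraries. Fkbp5 was 3.24-fold lower (log2 change −1.70 ± 0.34 SE, adjusted p = 0.0395 by edgeR), and between the totals the change was −1.28 ± 0.34, with the Aspm total replicate 1 at 66.0 CPM, inside the range of the Slc1a3 totals. Hpgd, the enzyme that inactivates prostaglandins, had 18.2, 11.5 and 10.3 CPM in Slc1a3+ libraries and 51.8, 36.5 and 67.9 CPM in Aspm+ libraries, a 3.89-fold lower level (adjusted p = 0.0305 by edgeR). Its log2 change was −1.96 between labelled cells and −1.24 between the totals. Tsc22d3, which encodes GILZ, another target of the receptor, had 557, 367 and 331 CPM in Slc1a3+ libraries and 1121, 845 and 1125 CPM in Aspm+ libraries. Its groups did not overlap, but its adjusted p was 0.0971 by edgeR. Of 26 such genes 8 had a positive and 17 a negative change, median −0.23, and 2 passed, both lower; between the totals 5 were positive and 20 negative, median −0.42. Fkbp5 lost its call with any of the 6 libraries left out and when scaled by library totals, and Hpgd without the Slc1a3+ replicate 2 or 4 or the Aspm+ replicate 1 or 4.

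**Figure D3:**
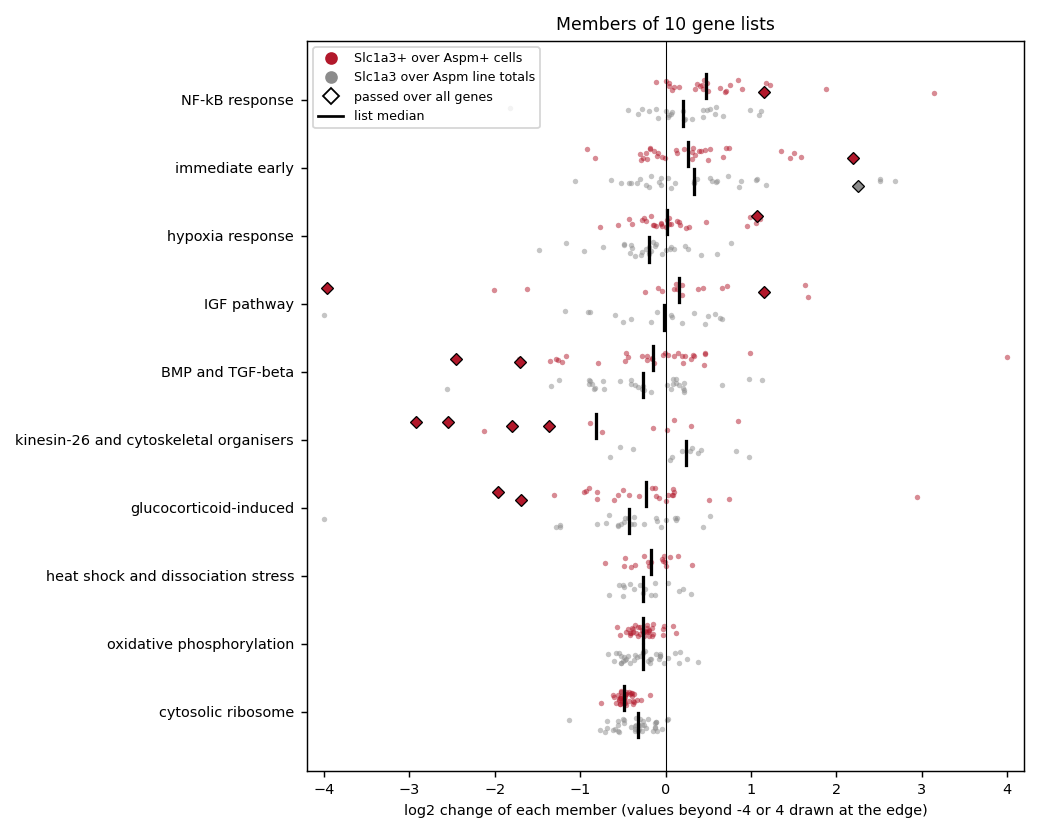
Log2 change of each measured member of 10 gene lists, Slc1a3+ over Aspm+ cells (red, upper row) and Slc1a3 over Aspm line totals (grey, lower row); bars are list medians and diamonds are members that passed over all genes. The median of the cytosolic ribosome list lies at −0.48 between labelled cells and −0.33 between totals, and that of the cytoskeletal list at −0.81 and 0.24.

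A further 7 genes passed, and the changes of Dapl1, Serpinb10, Megf6 and 2010300C02Rik were nearer to 0 between the totals. Hspb8, a small heat shock protein, averaged 131 ± 21.5 CPM in Slc1a3+ cells and 235 ± 38.8 CPM in Aspm+ cells (SD, n = 3 each), and its log2 change was −0.84 between labelled cells and −0.86 between totals. Tmem176b, a membrane protein that overlaps Tmem176a, had −0.98 and −1.01 in the same order. Tent5b, a poly(A) polymerase family member, had −1.47 and −1.57, and Dapl1, a gene of epithelial differentiation, had −0.92 and −0.74. Serpinb10, a protease inhibitor that overlaps Serpinb2, had −1.02 and −0.58, Megf6, a secreted protein with EGF repeats, −0.93 and −0.57, and 2010300C02Rik 0.90 and 0.54. Their adjusted p between labelled cells ran from 0.0135 for 2010300C02Rik to 0.0472 for Megf6, by edgeR. Each of these 7 lost its call in at least 3 of the 6 leave-outs, and Megf6 also with the size factors of DESeq2. Tmem176b, Tent5b, Dapl1, Serpinb10 and Megf6 lost it when scaled by library totals too. Cidea, a lipid droplet protein, had 19 summed counts in Slc1a3+ cells and 0 in Aspm+ cells, at least 2.82-fold higher where the floor is 3 counts in each Aspm+ library (adjusted p = 0.0177 by edgeR). Its fitted log2 change was 6.05 between labelled cells and 4.86 between the totals. Its call was lost without the Slc1a3+ replicate 1 or the Aspm+ replicate 2 or 4.

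Ribosomal protein genes shared 1 direction without passing singly. All 41 measured genes of the cytosolic ribosome had a negative change between labelled cells, with a median of −0.48, and 34 had an unadjusted p under 0.05, as did 883 of all 17493 genes in the negative direction. Between the totals 39 of the 41 were negative, median −0.33. Rps7 came nearest, at 736, 547 and 616 CPM in Slc1a3+ libraries and 907, 1042 and 1253 CPM in Aspm+ libraries (log2 change −0.75 ± 0.16 SE, adjusted p = 0.0501 by edgeR). The summed level of the list was 27489 to 43422 CPM in Slc1a3+ libraries and 44024 to 58736 CPM in Aspm+ libraries, and the ranges nearly met. Of 36 nuclear genes of oxidative phosphorylation 34 were negative, median −0.26 (−0.27 between the totals), and 0 passed. Scaled by library totals, the medians of the 2 lists were −0.39 and −0.17. Genes of mitosis and G2, 21 positive and 14 negative of 35, had a median of 0.06, and those of S phase, 7 positive and 23 negative of 30, a median of −0.12, and 0 of either passed. Differentiation genes of the spinous and granular layers had 22 positive and 14 negative changes of 37, and 0 passed. Krt2, a keratin of upper layers, stood at 133 CPM in the Slc1a3+ replicate 2, against 17.6 and 10.5 CPM in the other Slc1a3+ libraries and 11.9 to 13.6 CPM in Aspm+ libraries.

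Summed levels of genes of other cell types overlapped between the groups. Markers of Langerhans cells, the dendritic cells of the epidermis, summed to 138.9 to 381 CPM in Slc1a3+ libraries and 164 to 219 CPM in Aspm+ libraries, with 0 of 10 members at 0 in either group. Epidermal T cell genes summed to 27.98 to 113 CPM in Slc1a3+ libraries and 37.4 to 134 CPM in Aspm+ libraries, with Gzmb at 0 in Aspm+ cells, and melanocyte genes to 15.9 to 33.6 CPM and 17.4 to 22.3 CPM, with Mlana at 0 in both. Fibroblast genes summed to 33.6 to 123 CPM in Slc1a3+ libraries and 44.2 to 146 CPM in Aspm+ libraries, with Pdgfrb and Mfap5 at 0 in both, and genes of endothelium and mural cells to 38.6 to 60.3 CPM and 48.3 to 71.8 CPM, with Emcn at 0 in both. Red cell genes reached 16.9 CPM in the Slc1a3+ replicate 1, against at most 0.764 CPM in Aspm+ libraries. No member of these lists passed between the labelled cells. The Langerhans, T cell and fibroblast sums lay above the levels of some genes that passed, such as Hmcn1 and Kif26b. Whether RNA of such genes came from these cells was not tested. The highest Langerhans, melanocyte and red cell sums were in the Slc1a3+ replicate 1, which was also the Slc1a3+ library with the highest Sostdc1 and Hmcn1 and the lowest Nr4a1. These 3 genes kept their calls without that library.

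Labelled cells of the K14 line, in which the driver is named for keratin 14, give a second view of the same genes from 2 back libraries, without a test. The mean of K14+ cells lay nearer to Slc1a3+ than to Aspm+ cells in 13 of the 20 genes that were lower and in 1 of the 8 that were higher, Nr4a1. The same share over all genes tested was not computed, so these counts describe only the genes that passed. Hmcn1 was at 1.14 and 0.490 CPM in K14+ libraries, and Ltbp1 at 0.486 and 0.490 CPM, both below the Slc1a3+ level. Igfbp3, at 768 and 710.3 CPM in K14+ libraries, and Tbx3, at 6.89 and 7.66 CPM, stood at the Aspm+ level. Defb1 stood between the others, at 42.2 and 42.9 CPM.

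**Figure D4:**
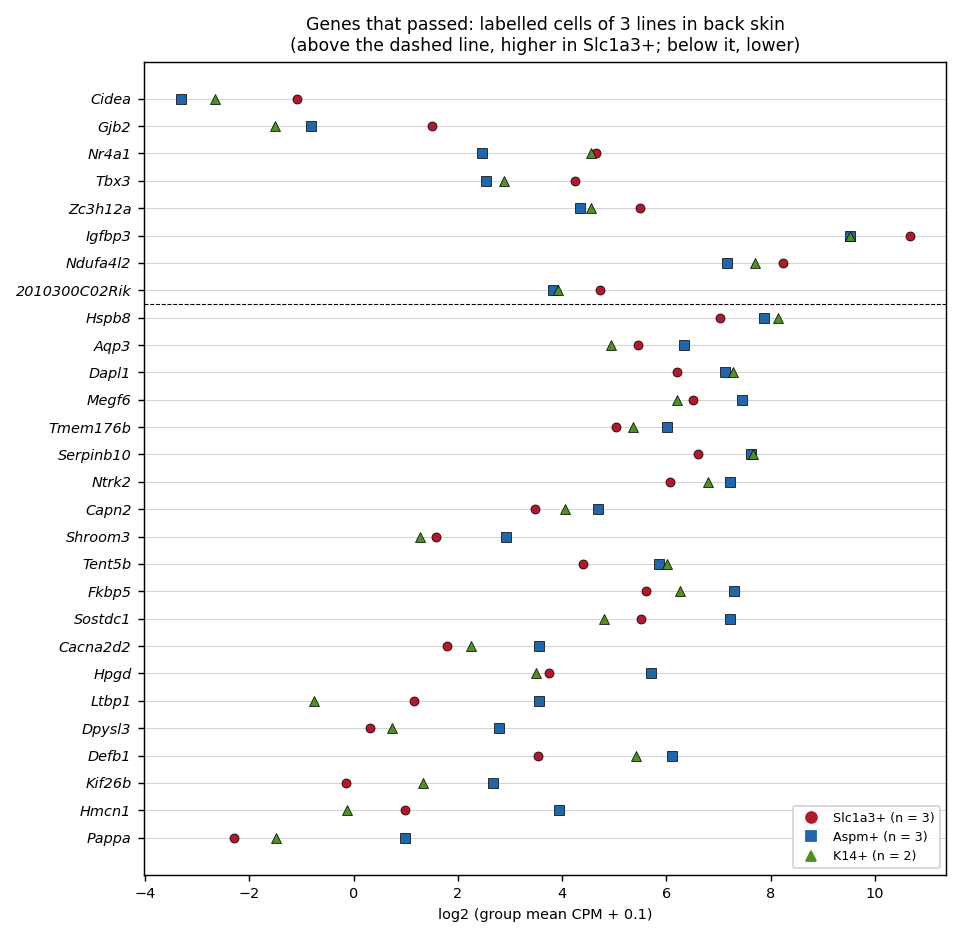
Mean level, as log2 of CPM plus 0.1, of the 28 genes that passed in Slc1a3+ (red circles), Aspm+ (blue squares) and K14+ cells (green triangles) of back skin. Below the dashed line the green triangle lies nearer to the red circle in 13 of 20 genes, and above it in 1 of 8. The same share over all genes tested was not computed.

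The same lines in tail skin, with 2 libraries each and no test made here, kept the sign of the change in 21 of the 28 genes. These were 5 of the 8 higher and 16 of the 20 lower genes. The tail means differed over 2-fold in the same direction in 8 genes, 1 higher and 7 lower, and in the opposite direction in 0. Shares over all genes tested were not computed, so these counts describe the 28 genes only. Pappa averaged 0.937 CPM in tail Slc1a3+ cells and 9.21 CPM in tail Aspm+ cells, Dpysl3 5.92 and 48.5 CPM, Ntrk2 61.7 and 277 CPM, and Sostdc1 74.1 and 188 CPM, in that order. Gjb2 averaged 86.1 CPM in tail Slc1a3+ cells and 39.3 CPM in tail Aspm+ cells, far above its back level. Igfbp3 was level in the tail, at 268 CPM in Slc1a3+ cells and 255 CPM in Aspm+ cells. So was Tbx3, at 5.66 and 6.33 CPM in that order. The tail means of Hmcn1, 0.560 and 0.693 CPM, both lay below every back Slc1a3+ library and rest on few counts. Whether these changes differ between sites was not tested.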

How the data were processed

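The deposited files hold raw counts per gene for each library, as made by the authors. The submitters' processing notes name Trim Galore 0.6.0, cutadapt, FastQC, STAR 2.7.0e and DESeq2 1.26.0 as tools and GRCm38 (mm10) as the build. The counting program, its annotation and its strand setting are not given in the sources used here. All 55536 identifiers matched GENCODE M21. Genes with enough counts (filterByExpr, minimum count 10) left 17493. Counts were scaled by TMM, a trimmed mean of log ratios, and fitted in edgeR 4.0.16 (R 4.3.3, limma 3.58.1, DESeq2 1.42.0) with 1 mean for each of 12 groups over all 28 libraries, 16 residual degrees of freedom and a common coefficient of variation of 0.280. A gene passed at an adjusted p under 0.05 (Benjamini-Hochberg over all genes). The script was tested on simulated data.

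The members, the gene lists and the named genes were chosen with earlier results of these data known. The text names genes that passed and carry a symbol other than a predicted name, up to 15 in each direction, the genes that name the lines, and from each list the members that passed and up to 4 more of lowest p. Same-numbered labelled and total libraries of 1 line deviated together over 10376 genes (r = 0.180 to 0.216 in the Slc1a3 line and 0.617 to 0.689 in the Aspm line), so they were taken as pairs. The labels do not state this pairing. Between the lines the numbers did not pair libraries.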

Additional observations from a re-analysis of the deposited data

How the results depend on the processing

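The 28 genes between labelled cells became 27 with the size factors of DESeq2, 24 scaled by library totals, 28 with a minimum count of 30 and 30 in limma-voom, but 255 without a low-count filter, 161 in DESeq2, 4 with only the back Slc1a3 and Aspm libraries (Hmcn1, Kif26b, Ltbp1 and Tent5b) and 0 with only the 6 compared. In limma-voom 20 of the 28 were among the 30. Leaving out 1 Aspm+ library gave 37 (replicate 1), 26 (replicate 2) or 9 (replicate 4). Of the 28 genes, 18, 17 and 9 were among them, in that order. Leaving out 1 Slc1a3+ library gave 29 (replicate 1), 12 (replicate 2) or 14 (replicate 4). These held 17, 12 and 12 of the 28, in that order. Leaving out the Slc1a3 total replicate 4 gave 115, with all 28 among them. The 2 genes between the totals became 1 scaled by library totals, 494 without a filter, 292 in DESeq2, 0 in limma-voom and in both smaller fits, and 0 to 32 with 1 library left out. The 0 genes of the difference of the 2 changes became 47 without a filter, 7 in DESeq2, 1 in limma-voom, and 0 or 1 with 1 library left out. With the pairs of labelled and total libraries as a block 6 passed, and 16 with the Slc1a3 total replicate 4 also left out, an alternative chosen after seeing the data.

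A replicate block on the numbers across lines gave 82, 16 and 0 genes, but the numbers did not pair the lines (r = 0.131, 0.0691 and 0.200 between same-numbered labelled libraries, −0.0710 to 0.141 between totals). The cause of these shifts was not tested, except that smaller fits hold fewer libraries. The 28 genes kept their direction in each setting that measured them, 16 settings for 27 genes and 14 for Cidea. Since the Slc1a3+ and Aspm+ libraries did not overlap in any of the 28, a reversal was hardly possible, and this adds no evidence. Genes of low level are the least precise, with Pappa, Cidea and Gjb2 resting on few counts.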
